A study of Mus musculus with 32 samples.

Results

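The spinal-minus-cerebral injury response at day 3 is, for each gene, its signed change in the spinal cord less that in the cerebrum. Both changes run from control mice to mice killed 3 days after photothrombosis. The response was computed as the spinal-minus-cerebral gap of the day 3 arrays less the same gap of the control arrays. It was available for all 19505 genes named by 1 symbol, from 19572 of 22206 probes, and rests on 16 of the 32 arrays of the series. Total RNA of frozen tissue from male wild-type C57BL/6J mice, 6 to 12 weeks old and weighing 20 to 25 g, had been amplified from 10 ng and hybridised, with 4 arrays in each group. The groups used are the cerebral controls, the spinal controls, the cerebrum 3 days after cerebral photothrombosis and the spinal cord 3 days after spinal photothrombosis. Surgery or light exposure of the controls is not described in the labels. Nor is it stated whether the 4 arrays of a group came from separate mice, so p-values measure only the spread between arrays. That spread was taken within groups and pooled over all 32 arrays of the series. The sample names of the groups lie in separate number ranges whose meaning the labels do not give, so a handling batch and a group cannot be told apart.

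In photothrombosis a dye in the blood is activated by light and clots the vessels beneath, which leaves a small ischaemic lesion. Such a lesion in the central nervous system is known to switch on immediate early genes, to draw blood monocytes that become macrophages, to make astrocytes reactive, and to kill neurons and the oligodendrocytes that wrap axons in myelin. The spinal cord holds more myelin than the cerebral cortex and has glycinergic neurons and cholinergic motor neurons that the cortex lacks. The tissues therefore differ before any injury. The title of the series names microglia and remyelination as what was compared between cerebral and spinal ischaemia.

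The deposited values are log levels, read here as log2 although the labels name no base, that had been centred gene by gene, with the day 3 arrays centred apart from the controls. A value of a control array therefore cannot be set against a value of a day 3 array directly, but the gap between the tissues at 1 time can, and so can the difference between gaps. In what follows the difference is that difference of gaps in log2 units, above 0 where the spinal response was higher. A gene passed where its limma adjusted p was under 0.05 over all 19505 genes, and is then called higher or lower. The response of each tissue on its own (day 3 minus control) needed the lost centring constant, which was rebuilt. The rebuilding assumed a separate centring over day 3 and control arrays together. Of the probes that could tell, 86.8% matched this, against 69.1% with day 1 and 68.6% with day 7 as the partner of day 3. A gene rose or fell in a tissue only where it passed against the remaining uncertainty of the constant.

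At day 3, 1808 genes (9.27%) passed: 796 (4.08%) were higher and 1012 (5.19%) lower in the spinal response. The median difference over all genes was -0.01, and 272 genes passed with a difference of at least 1 upwards and 314 of at least 1 downwards. Subtracting the 75th percentile of each array moved the median of all genes to -0.07 and the share of higher calls from 44.0% to 33.2%, with 656 higher and 1321 lower genes. Without cerebral controls 3 and 4 the counts were 384 higher and 489 lower, and a fit of the 16 arrays alone gave 407 and 548. Of the calls, 1068 also held in each of the 16 fits that left out 1 of these arrays.

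Most of these genes passed in the spinal cord and not in the cerebrum. Among the 796 higher genes, 462 rose in the spinal cord and did not pass in the cerebrum, 137 rose in both, and 65 fell in the cerebrum and did not pass in the spinal cord. Among the 1012 lower genes, 563 fell in the spinal cord and did not pass in the cerebrum, 83 rose in the cerebrum and did not pass in the spinal cord, and 337 passed in neither tissue alone. In all, 2617 genes (13.4%) rose and 2983 (15.3%) fell in the spinal cord, against 1101 (5.64%) and 1098 (5.63%) in the cerebrum. Counts of list members that rose or fell, given below, stand against these shares.

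**Figure D1:**
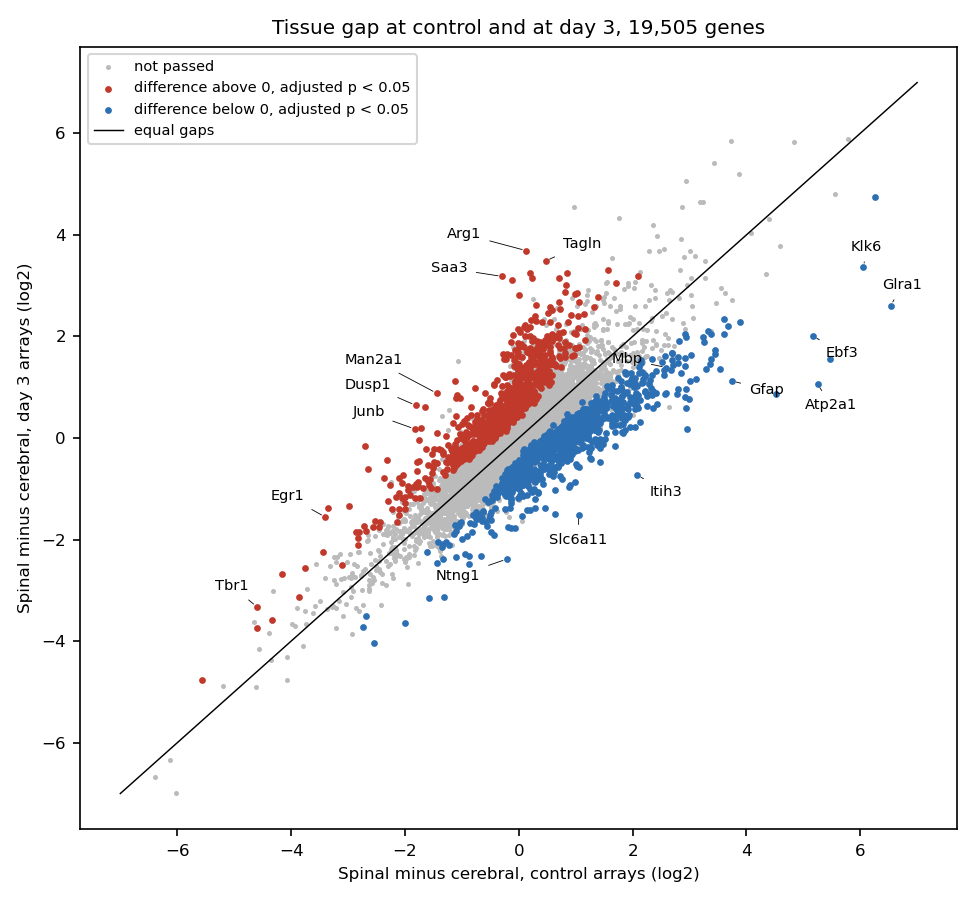
Each point is a gene; the x axis gives the spinal-minus-cerebral gap of the mean log2 values in the 4 control arrays of each tissue and the y axis the same gap in the 4 day 3 arrays of each tissue. The 796 genes above the line of equal gaps that passed are red, the 1012 below it blue; Glra1, Klk6 and Ebf3 lie far to the right, and Arg1, Saa3 and Tagln far above the line at a control gap near 0.

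The lower genes lay mostly among those that the control spinal cord held at a higher level than the control cerebrum. A control gap passed for 34.8% of genes, 17.2% upwards and 17.6% downwards. Of the 3352 genes higher in the spinal controls, 20.5% had a lower difference and 2.57% a higher one, while of the 3426 genes lower there 9.22% had a higher difference and 1.78% a lower one. Of the 12727 genes with no passing control gap, 3.1% were higher and 2.08% lower. The control arrays enter both the control gap and the difference, so these shares are a description. Among the 198 genes with a control gap above 2, the median gap was 2.55 at control and 1.68 at day 3, and among the 200 genes with a gap below -2 it was -2.55 and -2.34.

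Some arrays stood apart within their group. Over a list of 15 skeletal muscle genes, the list score (the median of its members' values) was 3.21 and 2.71 in spinal controls 1 and 2 against 0.72 and 0.05 in spinal controls 3 and 4 and between -0.26 and -0.0629 in the cerebral controls; at day 3 it was between -0.0668 and 0.50 in the spinal and between -0.25 and -0.0416 in the cerebral arrays. Forebrain neuron genes scored 2.83 and 2.72 in cerebral controls 3 and 4 against 2.25 and 2.30 in controls 1 and 2. Spinal day 3 replicate 1 had the widest spread over genes of the 16 arrays (SD 0.690) and the lowest array weight, 0.225. Cerebral day 3 replicate 2 had the lowest mean correlation with the other arrays of its group, 0.531. Spinal control replicate 2 followed at 0.570, with an array weight of 0.491. The labelled tissues matched their forebrain markers in all 16 arrays, the forebrain score lying between -2.09 and -1.57 in the spinal controls, and at day 3 between 1.33 and 1.72 in the cerebral and between -2.4 and -2.21 in the spinal arrays.

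Genes of macrophages and other myeloid cells led the higher side. Arg1, the arginase of alternatively activated macrophages, measured -0.73, -0.38, -0.71 and -0.2 in the cerebral controls and -0.24, -0.57, -0.5 and -0.18 in the spinal controls. At day 3 it measured 1.35, 1.12, 1.36 and 0.94 in the cerebrum and 5.43, 2.73, 5.06 and 6.32 in the spinal cord. The control groups overlapped, whereas every spinal day 3 array was above every cerebral one. Such a separation at day 3, also given for genes below, held for 15.1% of all genes, and the reverse order for 16.4%. The difference was 3.56 (95% interval 2.29 to 4.82), a ratio of 11.8 between the fold changes where the base is 2, with a limma adjusted p of 0.000484. Arg1 rose in both tissues, by 6.01 in the spinal cord and 2.46 in the cerebrum.

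Chil3, a chitinase-like protein secreted by macrophages, measured 0.09, -0.29, -0.26 and -0.28 in the cerebral and 5.6, 0.4, 1.82 and 3.92 in the spinal day 3 arrays. The spinal arrays were widely spread and all above the cerebral ones, while at control the tissues overlapped with all 8 values between -0.38 and 0.06. Its difference was 3.23 ± 0.76 (SE, limma adjusted p 0.00632). Chil3 rose in the spinal cord, by 3.07, and had a cerebral response of -0.16. Clec4d, a C-type lectin receptor of myeloid cells, measured 0.35, 0.39, 0.38 and 0.31 in the cerebral and 4.02, 0.91, 3.33 and 4.47 in the spinal day 3 arrays, with a difference of 2.82 (adjusted p 0.0019). Spinal day 3 replicate 2 was lowest of its group for Arg1, Chil3 and Clec4d. Over the 16 fits that left out 1 array the differences ran over 3.08 to 4.28 for Arg1, 2.34 to 4.07 for Chil3 (lowest without spinal day 3 replicate 1) and 2.39 to 3.58 for Clec4d, each highest without spinal day 3 replicate 2. A fit of the 16 arrays alone left Chil3 without a call (adjusted p 0.0620, the highest of its 27 alternatives, the lowest being 3.08e-05).

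Of 17 measured monocyte and macrophage genes, 7 were higher, against 4.08% of all genes, none was lower, and the list median was 0.93 against -0.01 over all genes. Besides Arg1 and Chil3 these were Fn1, F13a1, Ccr2, Itgam and Cd14. Ccr2, the receptor that lets monocytes leave the blood and follow chemokines, differed by 1.43 (adjusted p 0.00256), and F13a1, a transglutaminase subunit of macrophages, by 1.64 (adjusted p 0.00139). Ccr2 and F13a1 rose in the spinal cord, by 1.9 and 1.63, with cerebral responses of 0.46 and 0.00 that did not pass. Itgam, the CD11b integrin chain that microglia also carry, rose in both, by 3.21 and 1.79, with a difference of 1.42 that no longer passed without cerebral controls 3 and 4 (1.28) or under quantile normalisation (0.48). Under quantile normalisation Ccr2 differed by 0.86 and still passed. The call of Cd14 was lost without any 1 of 10 arrays (difference 0.83 to 1.38 over the 16 fits that leave out an array, as in all such ranges given here, with an adjusted p up to 0.0939), and quantile normalisation left 4 higher and 1 lower gene in this list, with a median of 0.40. In bulk tissue fewer cells of a type and less RNA per cell cannot be told apart.

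Genes that mark resting microglia gave 1 call among 13 measured, upwards, against 4.08% of all genes. This was Mertk, a receptor for engulfing dead cells, at 1.27 (adjusted p 0.000936), with a spinal response of 1.27 and a cerebral one of 0.00. P2ry12, a purinergic receptor by which microglia sense injury, differed by 0.03 (95% interval -0.69 to 0.74), Tmem119 by 0.11 (-0.33 to 0.55) and Cx3cr1, the fractalkine receptor, by -0.08 (-1.0 to 0.84). The list median was -0.02, and -0.63 with 2 lower genes under quantile normalisation. At day 3 the list score was -0.60, 1.19, 0.80 and 0.80 in the spinal arrays and between 0.35 and 0.68 in the cerebral ones. Spinal replicate 1 was thus below all cerebral arrays and the other spinal arrays above them. At control the score was between -0.21 and -0.04 in the spinal and between -0.10 and -0.01 in the cerebral arrays. Within the list 7 genes rose in the spinal cord and 6 in the cerebrum, and none fell in either.

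Among 16 genes of activated, phagocytic microglia, Lgals3, Msr1, Axl and Ctsb were higher, against 4.08% of all genes, and none was lower. Lgals3, galectin 3 of phagocytes, rose in both tissues, by 3.5 in the spinal cord and 1.5 in the cerebrum, a difference of 2.0 (adjusted p 0.00053). Axl, a receptor related to Mertk, also rose in both and differed by 0.99 (adjusted p 0.00138). Trem2, a lipid-sensing receptor needed for this state, differed by 0.56 (adjusted p 0.514) and Itgax by 0.03 (adjusted p 0.966). The calls of Msr1 and Ctsb were lost without any 1 of 7 and 11 arrays, with differences of 0.94 to 1.59 and 0.44 to 0.64. Under quantile normalisation no gene of this list passed, Lgals3 differing by 0.93 and Axl by 0.47, and its median was -0.06.

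Neutrophil and lymphocyte genes gave no calls at this day by limma. The 14 neutrophil genes had a median of 0.52, from -0.28 for Mpo to 1.39 for S100a8, and 5 of them rose in the spinal cord against 2 in the cerebrum. The 12 lymphocyte genes had a median of 0.1, and none rose or fell in either tissue. The neutrophil score was between 0.47 and 1.09 in the spinal day 3 arrays and between -0.37 and -0.08 in the cerebral ones, and at control it was between -0.02 and 0.35 in the spinal and between -0.34 and -0.12 in the cerebral arrays. Thus the tissues did not overlap at either time.

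**Figure D2:**
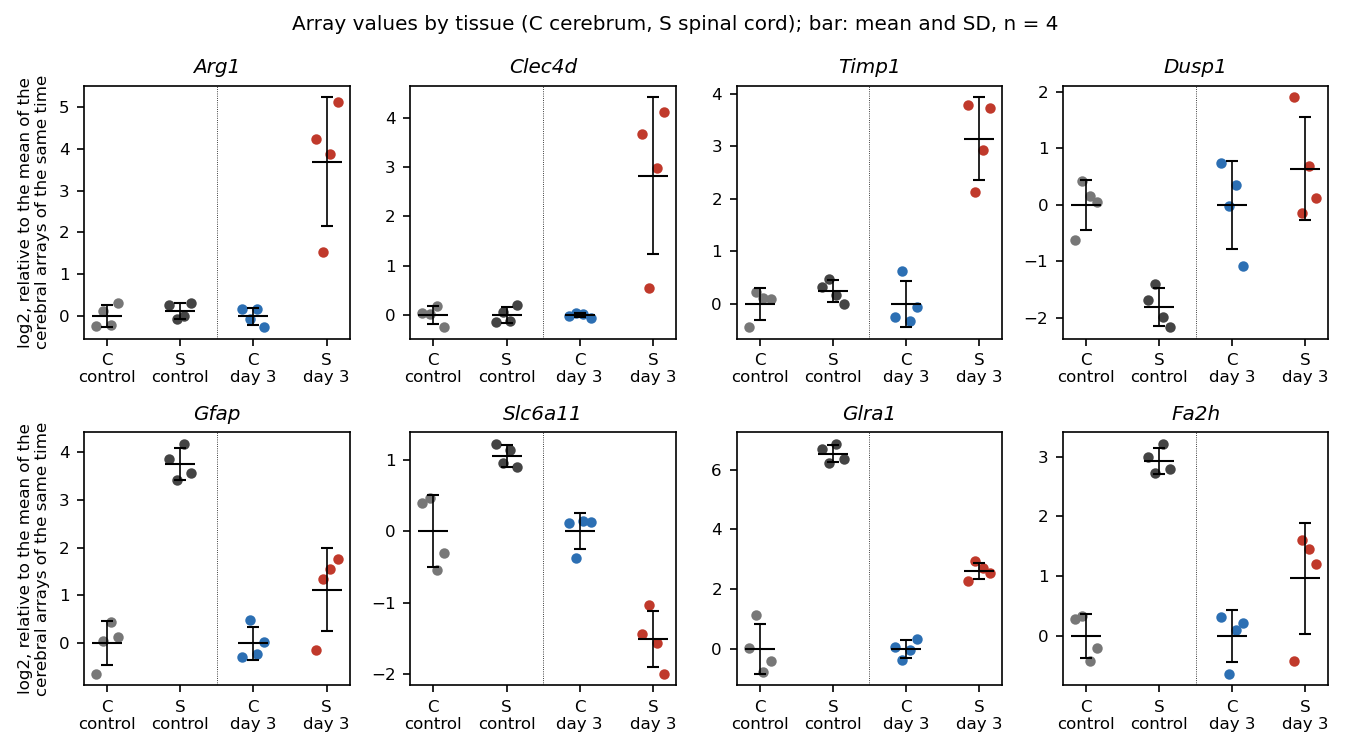
Log2 values of 8 genes in the 16 arrays, each shown relative to the mean of the 4 cerebral arrays (C) of the same time, with spinal arrays (S) beside them; bars give the mean and SD of 4 arrays. Arg1, Clec4d and Timp1 show a gap at day 3 that the controls lack, Dusp1 a gap that changes sign, and Gfap, Glra1 and Fa2h a control gap that is smaller at day 3.

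Acute phase and innate sensing proteins were also among the 15 genes with the largest higher differences. Saa3, a serum amyloid protein made by inflamed tissue and macrophages, measured 0.2, 0.23, -0.05 and 0.13 in the cerebral and 4.13, 1.04, 2.25 and 5.83 in the spinal day 3 arrays. No spinal array fell within the cerebral range, the difference was 3.47 (95% interval 1.97 to 4.97, limma adjusted p 0.00267), and the cerebral response of 0.22 did not pass. Lbp, which carries bacterial lipopolysaccharide to its receptor, differed by 3.05 (adjusted p 0.0128), with spinal controls as far apart as -1.61 and 1.25; without cerebral controls 1 and 2 its call was lost (2.76). Of 20 cytokine and chemokine genes Ptgs2, Il1rn and Ccl3 were higher, against 4.08% of all genes, and none was lower. Ptgs2, the inducible cyclooxygenase, differed by 1.88 (adjusted p 0.0111) and Il1rn, the antagonist of interleukin 1, by 1.78 (adjusted p 0.0073). Ccl3, a chemokine, differed by 1.39, with its call lost without any 1 of 9 arrays (1.2 to 1.58). None of the 3 passed without cerebral controls 3 and 4, Ptgs2 differing by 1.64 and Il1rn by 1.62.

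Il1b, interleukin 1 itself, had a difference of 1.9 that missed the threshold (adjusted p 0.0922, 95% interval 0.44 to 3.36), and Tnf had one of -0.02 (-0.38 to 0.35). Among 11 complement genes C3ar1, C1s1 and Itgb2 were higher, each also in all 16 fits that left out an array. Under quantile normalisation C3ar1 differed by 0.61 and lost its call, and Itgb2 differed by 0.62. C3ar1, a receptor of the C3a fragment, rose by 3.73 in the spinal cord and 2.06 in the cerebrum, and C1s1, a protease of the classical pathway, by 1.15 in the spinal cord with a cerebral response of 0.00. The C1q chains C1qa, C1qb and C1qc, made by microglia, had differences of 0.07, 0.17 and 0.35, none of which passed. Of 18 interferon response genes none passed, with a median of 0.15 that turned to -0.18 under quantile normalisation, and 9 of them rose in each tissue. Among antigen presentation genes H2-DMa was the single higher member of 8 class II genes (0.9, adjusted p 0.0049). Of 11 class I and immunoproteasome genes H2-T23 was higher (0.88), a call lost without any 1 of 5 arrays (0.72 to 1.03), and all 11 differences were above 0, with a median of 0.53 that was 0.16 under quantile normalisation. These counts stand against 4.08% of all genes.

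Several genes of the extracellular matrix and of its turnover were higher. Of 16 matrix proteases and their inhibitors Timp1, Adamts1, Mmp13 and Mmp19 were higher, against 4.08% of all genes, and Adamts4 was lower, at -1.0. Mmp13, a collagenase, and Adamts1, a protease of proteoglycans, differed by 0.94 and 1.43, and neither held in all 16 fits that left out an array (0.75 to 1.18 and 1.04 to 1.72). Timp1, an inhibitor of matrix metalloproteinases, measured -0.96, -0.29, -0.41 and -0.43 in the cerebral and -0.2, -0.05, -0.36 and -0.53 in the spinal controls, which overlapped. At day 3 it measured 0.14, 1.02, 0.08 and 0.33 in the cerebrum and 4.18, 2.53, 3.32 and 4.13 in the spinal cord, with no overlap. The difference was 2.91 (95% interval 1.73 to 4.08, limma adjusted p 0.00165). Timp1 rose by 3.85 in the spinal cord, and its cerebral response of 0.95 did not pass.

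Tagln, an actin-binding protein of smooth muscle and contractile fibroblasts, measured 0.05, 0.99, -0.05 and 0.13 in the cerebral and 3.46, 3.36, 4.06 and 4.2 in the spinal day 3 arrays. These did not overlap, whereas the control groups did, and the difference of 3.01 had an adjusted p of 2.44e-05. Among other genes of smooth muscle that did not pass, Acta2 differed by 0.87 (adjusted p 0.208), Myh11 by -0.19 and Cnn1 by -0.18. Ccn1, a matrix protein induced by growth factors and stretch, differed by 2.31 (adjusted p 0.003), and Igfbp3, a carrier of insulin-like growth factors, by 2.44 (adjusted p 0.0164). In the spinal controls Igfbp3 measured -0.06, 1.72, -0.26 and 0.21, with replicate 2 highest.

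Of 14 fibroblast and matrix genes 5 were higher and 1 lower, against 4.08% and 5.19% of all genes, with a median of 1.28. Fn1, fibronectin, rose by 4.15 in the spinal cord and 1.96 in the cerebrum, a difference of 2.19 (adjusted p 0.00655). In the spinal controls Fn1 measured -1.79, 0.79, -2.13 and -0.53, with replicate 2 highest. Thbs1, thrombospondin 1, rose by 3.94 and 1.86 and differed by 2.08 (adjusted p 0.00779). Sparc, a matrix protein that astrocytes and microglia also make, was the lower member at -0.87 (adjusted p 0.00834); it rose in the cerebrum, by 1.09, and did not pass in the spinal cord (0.23). Sparc lost its call without cerebral controls 3 and 4 (-0.41) and in a fit of the 16 arrays alone. The fibrillar collagens Col1a1, Col1a2 and Col3a1 had differences of 0.38, 0.3 and 1.48 that did not pass. The other higher members were Postn, Tnc and Col5a1. Postn lost its call without replicate 3 of the spinal controls (1.76) or of spinal day 3 (1.5), and Tnc and Col5a1 without any 1 of 10 arrays each (1.11 to 1.65 and 0.89 to 1.51). Quantile normalisation left 1 higher and 1 lower gene in the list, at a median of 0.84.

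Of 16 coagulation and fibrinolysis genes 4 were higher, against 4.08% of all genes, and none was lower. The calls of all 4 held in the 16 fits that left out an array. Plaur, the receptor of urokinase, differed by 2.12 (adjusted p 0.0118), Thbd, the thrombin-binding protein of vessel walls, by 1.94 (adjusted p 0.0142), and F13a1 and Thbs1 as given above. Plaur (2.09) and Thbd (1.73) lost their calls without cerebral controls 3 and 4, and under quantile normalisation Plaur differed by 1.31 and Thbs1 by 1.07. Plau and Plat, the plasminogen activators, differed by 0.36 and 0.22 and did not pass. Of 14 endothelial genes, against 4.08% of all genes, Cdh5 was the single higher one (1.04, lost without any 1 of 9 arrays, 0.85 to 1.26).

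The remaining genes among the 15 were Slc43a3, Man2a1 and Rasl11a. Man2a1, a Golgi mannosidase of glycan processing, was lower in the spinal than in the cerebral controls, at -1.63, -1.28, -1.33 and -1.54 against 0.05, -0.05, 0.15 and -0.18. At day 3 the spinal arrays measured 2.03, 0.32, 1.23 and 1.12 and the cerebral ones 0.34, 0.32, 0.31 and 0.2, so that 3 of 4 spinal arrays were above all cerebral ones and spinal replicate 2 was within their range. Its difference was 2.32 (95% interval 1.62 to 3.03, limma adjusted p 9.07e-05). Rasl11a, a small GTPase-like protein, also crossed, from a control gap of -1.13 to 1.12 at day 3 (adjusted p of the difference 0.000173). Slc43a3, a purine base transporter, had a control gap of 0.85 and a day 3 gap of 3.25 (adjusted p 0.000965).

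Quantile normalisation gives every array the same distribution, so it narrows the arrays with the widest spread. The SD over genes was 0.51 to 0.69 in the spinal and 0.27 to 0.35 in the cerebral day 3 arrays. Quantile normalisation on top of the deposited values made 8 of the 15 differences smaller by over 1.5 times. Arg1 then differed by 2.05, Tagln by 1.94, Timp1 by 1.81, Clec4d by 1.76, Igfbp3 by 1.53 and Slc43a3 by 1.44, and their calls held. Ccn1 (1.32, adjusted p 0.0735) and Fn1 (1.44, adjusted p 0.0778) lost theirs; over all 27 alternatives the adjusted p of limma ran from 0.000192 to 0.0735 for Ccn1 and from 5.49e-05 to 0.0778 for Fn1. Without cerebral controls 3 and 4 Igfbp3 lost its call (adjusted p 0.0622, range from 0.00263), as did Egr2 (0.145, range from 0.00147). Prl, the pituitary hormone prolactin, was higher by 2.54 but was passed over because its call was lost without cerebral control replicate 4 (adjusted p 0.0668, difference 1.88). Prl measured 1.77, 1.53, 3.07 and 4.77 in the cerebral and 0.55, -0.29, -0.01 and 0.07 in the spinal controls.

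Immediate early genes are the transcription factors and phosphatases that cells switch on first. Of 18 measured, 9 were higher, against 4.08% of all genes, and none was lower, with a median of 0.82. The median gap of the list was -1.52 at control and -0.34 at day 3, so below 0 at both times. At day 3 the list score was between -0.56 and 0.35 in the spinal and between 0.12 and 0.53 in the cerebral arrays, which overlapped. The higher genes were Dusp1, Egr2, Junb, Egr1, Atf3, Nr4a1, Fosl2, Fos and Egr3. Of these calls 8 held in the 16 fits that left out an array, and that of Egr3 (0.55) was lost without any 1 of 7 arrays (0.45 to 0.62). The counts under quantile, median and 75th percentile scaling were 10, 10 and 8 higher genes.

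Dusp1, a phosphatase that switches off MAP kinases, measured -0.32, 0.73, 0.47 and 0.36 in the cerebral controls and -1.37, -1.1, -1.68 and -1.85 in the spinal controls, with every spinal array lower. At day 3 it measured 0.69, -0.08, 0.3 and -1.13 in the cerebrum and 1.85, -0.19, 0.64 and 0.06 in the spinal cord, and the groups overlapped. The difference was 2.45 (95% interval 1.32 to 3.59, limma adjusted p 0.00449). Dusp1 rose in the spinal cord, by 1.83, and its cerebral response of -0.62 did not pass. Junb, a partner of Fos in the AP-1 factor, had a control gap of -1.83 and a day 3 gap of 0.18, a difference of 2.01 (adjusted p 0.000203), and rose in the spinal cord by 2.32. Atf3, which injured neurons and glia induce, rose in both tissues, by 2.66 and 0.94, and differed by 1.72 (adjusted p 0.00095), which was 1.0 under quantile normalisation.

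Other members had a cerebral response below 0. Nr4a1, a nuclear receptor induced by activity, fell in the cerebrum by 1.40 and had a spinal response of 0.26, with a difference of 1.65 (adjusted p 0.00301). Egr1, a zinc finger factor, had responses of -1.6 in the cerebrum and 0.25 in the spinal cord, neither of which passed, while the difference of 1.85 did (adjusted p 0.00498), though not without cerebral controls 3 and 4 (1.38). Egr2 measured -0.35, 1.71, 1.78 and 1.77 in the cerebral controls, with replicate 1 far below the others, and -1.3, 1.06, -1.42 and 0.00 in the spinal controls. At day 3 Egr2 measured 0.07, -0.56, -0.52 and -0.71 in the cerebrum and 0.66, -0.02, 0.04 and 0.02 in the spinal cord, a difference of 2.25 (adjusted p 0.0165). Over the whole list 6 genes rose and 1 fell in the spinal cord, against 1 and 4 in the cerebrum. Jun, Arc, Npas4, Fosb and Fosl1 had differences between -0.19 and 0.17.

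Because these genes share known control elements, the RefSeq window of each start site (250 bases before it and 50 after, GRCm38.p6) was searched on both strands for 3 motifs: the CArG box bound by serum response factor, the cyclic AMP element TGACGTCA and the AP-1 element TGANTCA. Windows were given for 15691 of the genes tested, for 620 of the higher and 822 of the lower ones, and for 7 of the 9 higher immediate early genes. A CArG box lay in a window of 1.7% of all these genes, of 2.9% of the higher and of 1.82% of the lower ones. TGACGTCA lay in 2.63%, 3.23% and 2.68%, and TGANTCA in 8.35%, 8.55% and 7.3%. Among the 7 immediate early genes Egr2 held a CArG box, in the windows of both its start sites, and Dusp1 held TGACGTCA. Among the 15 lowest genes Ebf3 held a CArG box too. The stretches of Egr2 and Dusp1, the immediate early genes among the 15 highest, are shown on the gene's own strand; capitals mark the motif. They lie at chr10:67537464-67537533 and chr10:67537767-67537836 (plus strand) and chr17:26508578-26508645 (minus strand).
Egr2 start site 1: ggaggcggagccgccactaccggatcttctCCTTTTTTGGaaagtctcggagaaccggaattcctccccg
Egr2 start site 2: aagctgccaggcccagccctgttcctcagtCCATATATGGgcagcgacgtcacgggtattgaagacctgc
Dusp1: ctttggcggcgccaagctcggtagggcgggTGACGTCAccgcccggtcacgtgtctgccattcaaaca

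Cell division genes rose in both tissues. Of 19, 6 were higher, against 4.08% of all genes, and none lower, at a median of 0.7. In the spinal cord 19 of 19 rose and in the cerebrum 17, against 13.4% and 5.64% of all genes. Cdc20, an activator of the anaphase complex, differed by 0.99 (adjusted p 0.0126) and Pcna, the sliding clamp of DNA polymerase, by 0.86 (adjusted p 0.011); these 2 held in the 16 fits that left out an array. Bub1, Mcm6 and Cenpe lost their calls without any 1 of 7, 7 and 8 arrays, with differences of 0.94 to 1.58, 0.73 to 1.01 and 0.68 to 1.09, and Mcm5 lost its call without replicate 3 of the spinal controls (0.82) or of spinal day 3 (0.76). No member passed under quantile normalisation (median 0.12) or without cerebral controls 3 and 4 (median 0.62).

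Reactive astrocyte genes split. Of 16, Timp1, Emp1, Nes, Osmr and Vim were higher and Gfap was lower, against 4.08% and 5.19% of all genes, with a median of 0.92. Gfap, the astrocyte intermediate filament that defines reactivity, measured -4.24, -3.56, -3.16 and -3.48 in the cerebral and 0.25, -0.19, 0.55 and -0.05 in the spinal controls, far apart. At day 3 it measured -0.33, 0.44, -0.26 and -0.01 in the cerebrum and -0.19, 1.3, 1.51 and 1.71 in the spinal cord, where replicate 1 fell within the cerebral range. The gap went from 3.75 to 1.12, a difference of -2.63 (95% interval -3.37 to -1.88, limma adjusted p 3.95e-05). Gfap rose in both tissues, by 3.37 in the cerebrum and 0.74 in the spinal cord.

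Nes, an intermediate filament of progenitors and reactive astrocytes, rose by 1.87 in the spinal cord and 0.76 in the cerebrum, opposite to Gfap in its difference (1.11, adjusted p 0.000931); under quantile normalisation Nes differed by 0.51 and did not pass. Vim, a further intermediate filament, Osmr, a cytokine receptor chain, and Emp1, a membrane protein, lost their calls without any 1 of 6, 8 and 1 arrays, with differences of 0.72 to 1.11, 0.82 to 1.17 and 1.32 to 2.2; for Emp1 the array was spinal control replicate 3, without which it differed by 1.59. Serpina3n and Cd44 differed by 0.38 and 0.66 and did not pass. In the list 15 genes rose in the spinal cord and 10 in the cerebrum. Quantile normalisation left 1 higher and 1 lower gene.

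**Figure D3:**
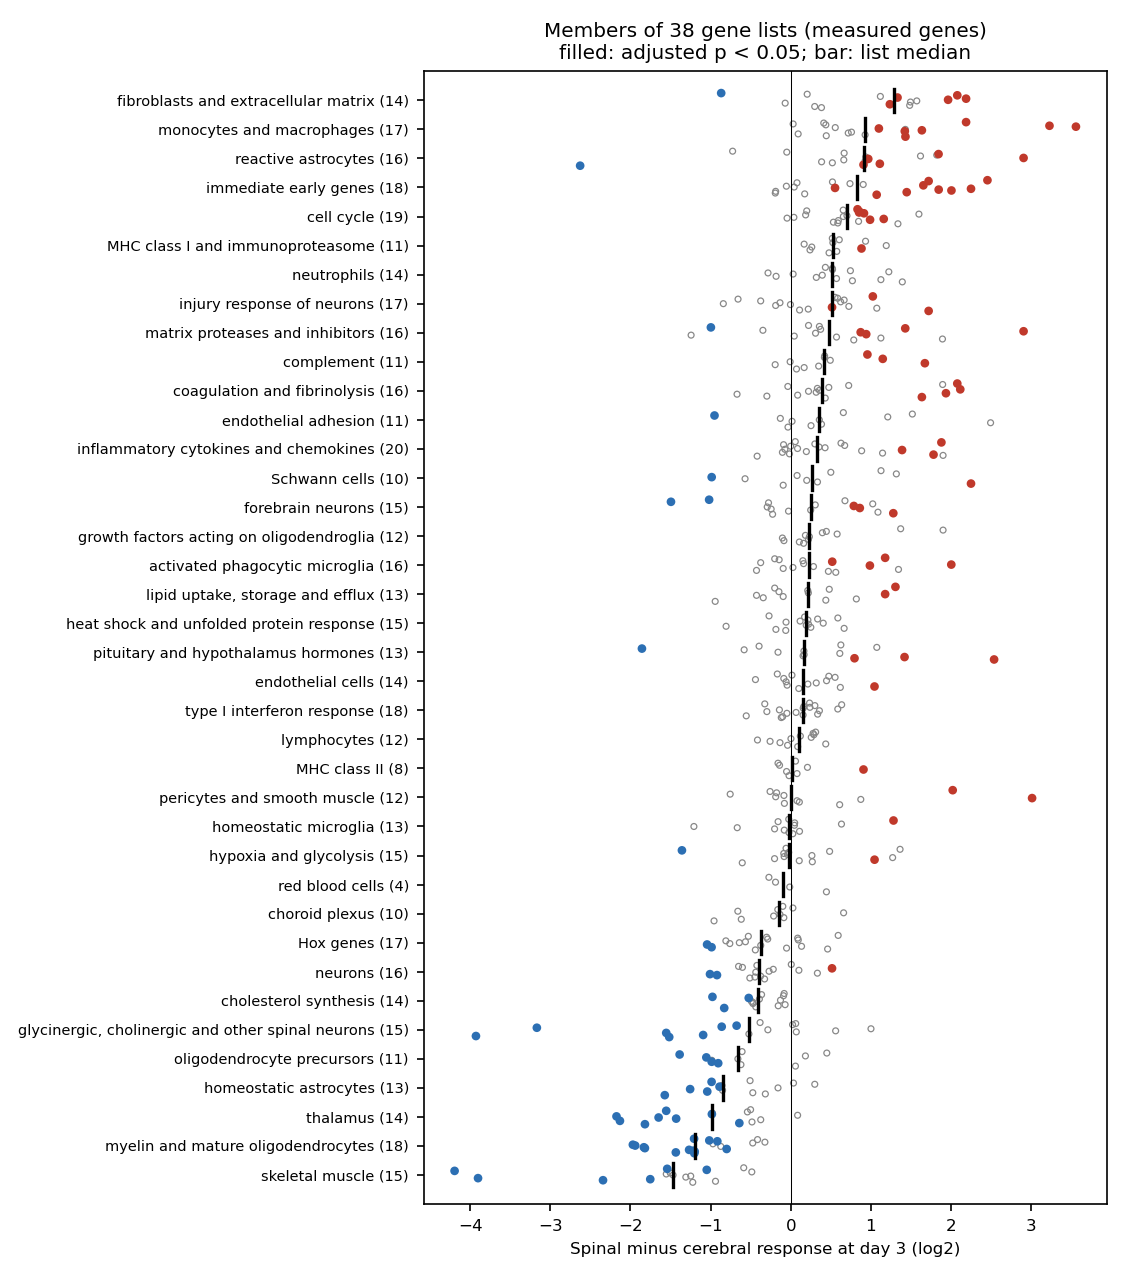
Difference of each measured member (points, x axis, log2) of 38 gene lists (y axis, number measured in brackets), with filled points for members that passed and a bar at the list median. Monocyte, matrix and immediate early genes lie to the right, myelin, thalamus and muscle genes to the left, and interferon, lymphocyte and choroid plexus genes have no filled point.

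Genes by which resting astrocytes take up transmitters and potassium were on the lower side. Slc6a11, the astrocyte GABA transporter GAT-3, measured -0.54, -0.46, -1.47 and -1.23 in the cerebral and 0.3, 0.03, 0.22 and -0.03 in the spinal controls, the spinal arrays all above the cerebral ones. At day 3 the order was turned, with 0.62, 0.13, 0.66 and 0.63 in the cerebrum and -0.93, -0.53, -1.06 and -1.48 in the spinal cord. The difference was -2.56 (95% interval -3.2 to -1.93, limma adjusted p 2.44e-05); Slc6a11 fell by 1.46 in the spinal cord and rose by 1.1 in the cerebrum. Agt, angiotensinogen, which astrocytes of the spinal cord and brainstem make, measured -0.87, -0.76, -2.92 and -2.2 and 1.3, 0.81, 1.76 and 1.24 in the cerebral and spinal controls and -0.04, -0.19, -0.26 and 0.04 and 0.22, 0.06, -0.18 and 0.13 at day 3. A control gap of 2.96 was thus 0.17 at day 3, a difference of -2.79 (adjusted p 0.000145).

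Itih3, which links to hyaluronan in the matrix, had a control gap of 2.08 and a day 3 gap of -0.73 (difference -2.82, adjusted p 6.38e-05), falling by 1.51 in the spinal cord and rising by 1.3 in the cerebrum. Lcat, an enzyme that esterifies cholesterol on lipoproteins, differed by -2.14 (adjusted p 0.000203) and fell by 1.58 in the spinal cord. Of 13 resting astrocyte genes 5 were lower and none higher, against 5.19% of all genes, with a median of -0.85. The day 3 score of this list was -0.82, 0.32, 0.02 and -0.19 in the spinal arrays, with replicate 1 lowest. In the cerebral day 3 arrays it was between 0.01 and 0.16. Kcnj10, a potassium channel, differed by -1.26 (adjusted p 0.00626), Slc4a4, a bicarbonate transporter, by -0.99 (adjusted p 0.00861) and Aldoc, an aldolase, by -0.89 (adjusted p 0.00059). Aqp4, the water channel, lost its call without any 1 of 10 arrays (-1.86 to -0.86), and Gja1, connexin 43, without spinal control replicate 3 (-0.94) or cerebral day 3 replicate 1 (-0.98) or 4 (-1.0); without spinal day 3 replicate 1 Gja1 differed by -0.69 and passed. The glutamate transporters Slc1a2 and Slc1a3 differed by -0.32 and -0.47 and did not pass. Without cerebral controls 3 and 4 the list held 1 lower gene, Kcnj10 differing by -1.08 and Slc4a4 by -0.67.

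Myelin genes were lower as a group. Of 18 measured, 13 were lower, against 5.19% of all genes, and none higher, all 18 differences were below 0, and the median was -1.2. Fa2h, which makes the hydroxylated lipids of myelin, measured -0.36, -0.32, -1.07 and -0.85 in the cerebral and 2.35, 2.08, 2.56 and 2.13 in the spinal controls. The day 3 values were -0.02, -0.96, -0.24 and -0.11 in the cerebrum and -0.75, 1.27, 1.12 and 0.87 in the spinal cord, where replicate 1 lay within the cerebral range and the others above it. The gap of 2.93 at control was 0.96 at day 3, a difference of -1.97 (95% interval -2.76 to -1.18, limma adjusted p 0.00146). Fa2h fell by 1.99 in the spinal cord, with a cerebral response of -0.02.

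Mbp, myelin basic protein, measured -1.08, -1.34, -1.54 and -1.6 in the cerebral controls, 1.27, 1.13, 1.29 and 1.12 in the spinal controls, -0.67, -0.91, -0.62 and -0.58 in the cerebral and 0.69, 0.82, 0.67 and 0.58 in the spinal day 3 arrays. The tissues did not overlap at control, and the gap of 2.59 was 1.39 at day 3 (difference -1.2, adjusted p 2.81e-05). Ermn, a cytoskeletal protein of late oligodendrocytes, differed by -1.82 (adjusted p 3.4e-05), Ugt8a, the galactosyltransferase of myelin lipids, by -1.94 (adjusted p 0.00617), and Cnp, Mog and Mobp by -1.27, -1.43 and -1.22. On the tissues' own responses 4 of the 18 fell in the spinal cord and 2 rose in the cerebrum, Bcas1 by 1.01 and Trf by 1.65. Trf, the iron carrier transferrin, rose in the spinal cord too, by 0.74. Ugt8a (-1.64), Mag (-0.83), Cldn11 (-0.62) and Bcas1 (-0.75) lost their calls without cerebral controls 3 and 4.

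The calls of Aspa and Trf depended on single arrays. Aspa, which splits N-acetylaspartate, had a difference of -1.83 (range -2.18 to -1.2) and lost its call without cerebral control replicate 3 (-1.62), and its difference was -1.20 without spinal day 3 replicate 1. Trf lost it without cerebral control replicate 4 (-0.84), spinal control replicate 3 (-0.87) or spinal day 3 replicate 1 (-0.63). Among transcription factors of the lineage, Sox10 differed by -0.99 (adjusted p 0.0103) and Olig2 by -0.9, the latter not passing without spinal control replicate 3 (-0.8, adjusted p 0.0514). Myrf, which drives myelin genes, differed by -0.32 (adjusted p 0.392). Of 11 precursor genes 4 were lower, against 5.19% of all genes, and none higher. Besides Sox10 and Olig2 these were Enpp6 at -1.39 and Lhfpl3 at -1.05. The day 3 score of this list was -0.67, 0.32, 0.585 and 0.35 in the spinal arrays, with replicate 1 lowest. In the cerebral day 3 arrays it was between -0.17 and 0.07. Without spinal day 3 replicate 1 Enpp6 differed by -1.12 and Olig2 by -0.67, still passing. Cspg4, the NG2 proteoglycan, differed by 0.06 (95% interval -0.49 to 0.61). Further enzymes of the same cells were among the 15 lowest, Klk6, a protease, at -2.69 (adjusted p 5.47e-05) and Padi2, which citrullinates myelin basic protein, at -2.18 (adjusted p 0.00585). Under quantile normalisation Klk6 differed by -1.48. Padi2 (-1.86), Sox10 (-0.73), Enpp6 (-1.27) and Lhfpl3 (-0.82) lost their calls without cerebral controls 3 and 4.

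The myelin score differed within groups. It was -0.68, -0.68, -1.23 and -0.96 in the cerebral controls, with replicate 3 lowest. Within day 3 it was 0.09, 0.69, 0.78 and 0.71 in the spinal arrays, with replicate 1 lowest, and -0.22, -0.80, -0.21 and -0.20 in the cerebral ones, with replicate 2 lowest. Without cerebral controls 3 and 4 the list had 7 lower genes and a median of -0.95, against 14 lower genes and a median of -1.38 without cerebral controls 1 and 2. The part of these arrays in the result was not tested.

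Sterol synthesis supplies the cholesterol of myelin. Of its 14 genes 3 were lower, against 5.19% of all genes, and none higher, at a median of -0.41, and all 14 differences were below 0. Hmgcs1, an early enzyme of the pathway, differed by -0.83 (adjusted p 0.017) and Sc5d, a late one, by -0.52 (adjusted p 0.0109). Insig1, which holds back the pathway's transcription factor, differed by -0.98 and lost its call without any 1 of 6 arrays (-1.3 to -0.82). Hmgcs1 did not pass without cerebral controls 1 and 2 (-0.76), nor Sc5d without cerebral controls 3 and 4 (-0.45).

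Glra1 and Ebf3, which neurons of the spinal cord and brainstem express, had the largest lower differences among the 15 lowest genes after the muscle gene Atp2a1. Glra1, the main adult subunit of the glycine receptor, measured -4.7, -3.61, -5.51 and -5.14 in the cerebral and 1.94, 1.49, 2.13 and 1.63 in the spinal controls. Its day 3 values were -1.24, -1.68, -1.33 and -0.96 in the cerebrum and 0.96, 1.63, 1.4 and 1.23 in the spinal cord. The tissues stood apart at both times, but the gap was 6.54 at control and 2.61 at day 3, a difference of -3.93 (95% interval -4.72 to -3.13, limma adjusted p 6.1e-07). The offset left a range of ± 1.59, so neither tissue's response passed for Glra1.

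Ebf3, a transcription factor of such neurons, measured -2.64, -2.24, -4.05 and -3.61 in the cerebral and 2.07, 1.81, 2.15 and 2.12 in the spinal controls. Its day 3 values were -0.52, -1.23, -0.83 and -0.61 in the cerebrum and 0.52, 1.84, 1.39 and 1.09 in the spinal cord. Its difference was -3.17 (adjusted p 2.59e-05). For Glra1, Ebf3, Itih3, Agt, Klk6 and Calb2 cerebral controls 3 and 4 were the lowest of the 4 cerebral controls, and without both the differences were -3.34, -2.47, -2.01, -1.92, -1.95 and -1.33, all still passing. Of 15 genes of spinal neurons 7 were lower, against 5.19% of all genes, and none higher, at a median of -0.52, 3 of them in all 16 fits that left out an array: Glra1, Ebf3 and Slc6a5, the glycine transporter of inhibitory terminals (-1.52, adjusted p 0.00164). Under quantile normalisation Slc6a5 differed by -0.71 and lost its call. Glra3, Pax2 and Lhx1 lost their calls without any 1 of 9, 12 and 9 arrays (-1.3 to -0.92, -1.03 to -0.72 and -0.8 to -0.58), and Slc5a7 without cerebral control replicate 3 (-1.13) or spinal control replicate 3 (-1.34). Chat, the enzyme of acetylcholine synthesis in motor neurons, differed by -0.52 (95% interval -0.95 to -0.09).

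A list of genes named for the thalamus was mostly lower. Of 14, 8 were lower, against 5.19% of all genes, and none higher, at a median of -0.98. In the cerebrum 9 rose, while 1 rose and 2 fell in the spinal cord. The median control gap of the list was -0.16, so it did not mark the cerebrum at control. Spinal changes of its members are therefore not read as thalamic. Ntng1, an axon guidance protein, measured 0.55, 0.19, -0.31 and 0.13 and -0.01, -0.22, 0.01 and -0.05 in the cerebral and spinal controls, which overlapped, and 1.04, 0.14, 1.01 and 0.96 and -2.26, -0.86, -1.38 and -1.89 at day 3, which did not. Its difference was -2.17 (95% interval -2.8 to -1.55, limma adjusted p 4.79e-05), and it fell by 1.53 in the spinal cord. Calb2, the calcium buffer calretinin, was higher in the spinal than in the cerebral controls (gap 2.93) and differed by -2.13. Tcf7l2, a thalamic transcription factor that oligodendrocytes also use, differed by -1.82 (adjusted p 0.00824), and Slc17a6, a vesicular glutamate transporter, by -1.43 (adjusted p 0.00206). In the cerebrum Slitrk6 rose by 1.77, Tcf7l2 by 1.58 and Slc17a6 by 1.29. Without cerebral controls 3 and 4 Tcf7l2 differed by -0.86, Slc17a6 by -0.89 and Slitrk6 by -1.0, all still passing, and Tcf7l2 lost its call in a fit of the 16 arrays alone. At control the thalamus score was 0.28, -0.02, -0.39 and -0.02 in the cerebral arrays, a range that held the spinal ones. At day 3 it was 0.60, 0.21, 0.57 and 0.65 in the cerebral arrays and between -0.43 and -0.08 in the spinal ones, without overlap. The median cerebral response of the list was 0.92.

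Genes of forebrain neurons went both ways. Of 15, Tbr1, Nrgn and Chrm1 were higher and Ppp1r1b and Cux2 lower, against 4.08% and 5.19% of all genes, with a median of 0.25. Tbr1, a factor of deep cortical neurons, fell by 1.40 in the cerebrum and differed by 1.28 (adjusted p 0.000294). Nrgn, neurogranin of dendrites, fell in both tissues, by 1.84 in the cerebrum and 0.98 in the spinal cord. Ppp1r1b, the DARPP-32 protein of striatal neurons, fell by 1.53 in the spinal cord and differed by -1.49 (adjusted p 0.00502). Chrm1 lost its call without any 1 of 5 arrays (0.68 to 0.94), and without cerebral controls 3 and 4 Nrgn (0.72) and Ppp1r1b (-1.01) lost theirs. Cux2, of upper cortical layers, differed by -1.02, and by -0.7 under quantile normalisation without passing. Among 16 genes of neurons in general Nefh and Nefm, subunits of the neurofilaments of large axons, were lower (-1.01 and -0.92, the latter -0.66 and not passing under quantile normalisation), and Gap43, a protein of growing axons, was higher by 0.52, a call lost without cerebral control replicate 2 (0.47) or spinal day 3 replicate 3 (0.43). In that list 8 genes fell in the spinal cord and 2 in the cerebrum, against 15.3% and 5.63% of all genes. Its 1 higher and 2 lower calls stand against 4.08% and 5.19%.

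Gng8, a G protein gamma subunit, had a control gap of 2.99 and a day 3 gap of 0.77 (difference -2.22, adjusted p 3.13e-05) and fell by 2.31 in the spinal cord, with a cerebral response of -0.09. Of 17 Hox genes, which mark the axial level of the spinal cord, Hoxb8 and Hoxb5 were lower, against 5.19% of all genes (-1.04 and -0.99, adjusted p 0.00108 and 0.003). In the spinal cord 5 of the list fell, against 15.3% of all genes.

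The most negative difference of all named genes belonged to muscle. Atp2a1, the calcium pump of fast skeletal muscle, measured 6.85, 6.32, 3.49 and 0.98 in the spinal controls against -0.43, -0.73, -1.42 and -0.78 in the cerebral ones. At day 3 it measured 3.13, 0.96, 0.01 and -0.53 in the spinal cord and -0.01, -0.48, 0.1 and -0.28 in the cerebrum. Spinal controls 1 and 2 were thus far above the other control arrays. The difference was -4.19 (adjusted p 0.0116), and -2.02 without these 2 arrays (adjusted p 0.143, against a lowest of 0.000264 over the 27 alternatives). Of 15 muscle genes 6 were lower, against 5.19% of all genes. The list median of -1.47 was -0.13, with 1 lower gene, without spinal controls 1 and 2. Myh1, Myh4 and Myh8, myosin heavy chains, had differences of -2.34, -3.9 and -3.63 and were passed over because their calls did not hold in all 16 fits.

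**Figure D4:**
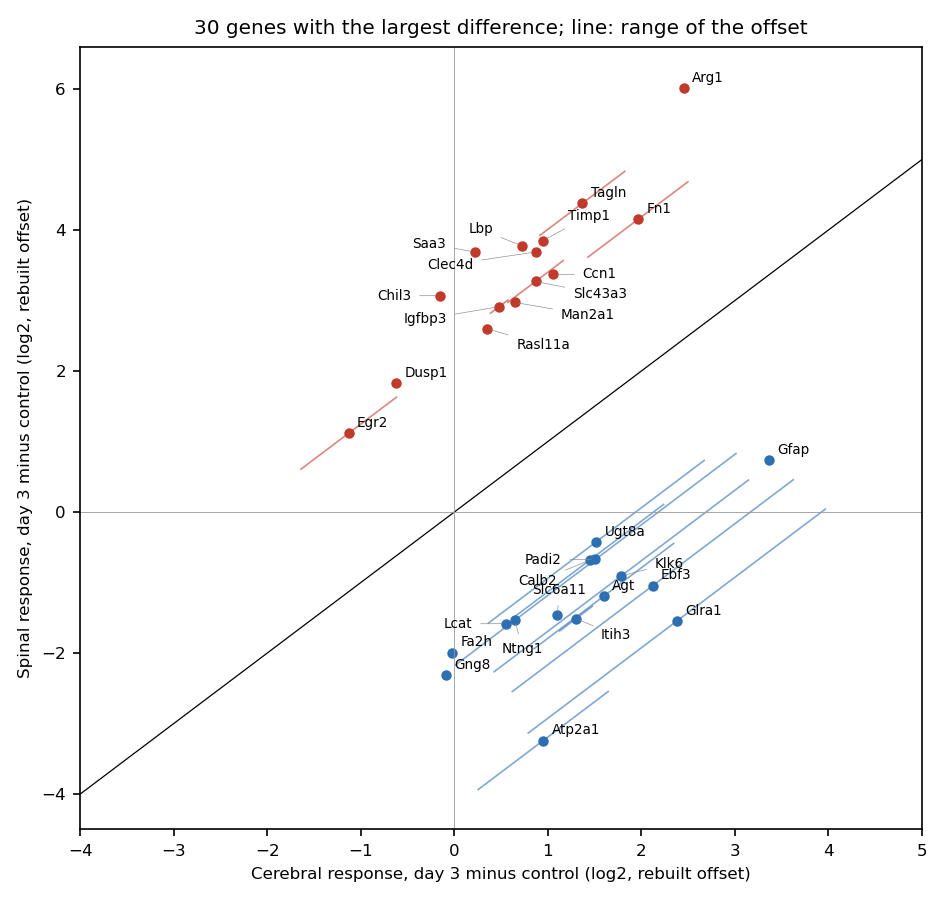
Cerebral response (x axis) and spinal response (y axis), day 3 minus control in log2 with the rebuilt offset, of the 30 genes with the largest differences; red marks higher and blue lower differences, the black diagonal marks equal responses, and each sloping line the range of the offset. Arg1, Tagln and Fn1 rose in both tissues with the larger response in the spinal cord, Gfap rose more in the cerebrum, and Slc6a11 and Itih3 rose in the cerebrum and fell in the spinal cord.

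The gap between injured tissues was also compared directly between days. That difference uses no control array, although the pooled spread behind its p-value does. Against day 1, 1599 genes differed (8.20%), 940 (4.82%) with a higher and 659 (3.38%) with a lower gap at day 3. This count was 1012 without cerebral day 3 replicate 1 and 947 without spinal day 3 replicate 3, and up to 2251 without spinal day 3 replicate 4. Against day 7, 2509 genes differed (12.9%), 1296 (6.64%) higher and 1213 (6.22%) lower at day 3. Counts of list members by day, given below, stand against these shares. There, higher or lower at day 3 than at another day means this gap and not a level over time. Differences from control at the 3 days share the same control arrays and are given side by side for description.

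Proliferation genes had the largest change of the gap from day 1. Mki67, the Ki-67 marker of dividing cells, had a spinal-minus-cerebral response of -3.15 at day 1, 1.34 at day 3 and 3.52 at day 7, and its gap was higher by 4.48 at day 3 than at day 1 (limma adjusted p 2.72e-06). Pbk, a mitotic kinase, had -2.91, 1.6 and 3.1, with a gap higher by 4.51 than at day 1 (adjusted p 5.86e-06). Of the 19 cell cycle genes 17 were higher at day 3 than at day 1 and 11 lower than at day 7. Their median was -0.78, 0.7 and 1.55 at the 3 days.

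Phagocyte genes also had higher gaps at day 3 than at day 1. Mpeg1, a pore-forming protein of macrophages and microglia, had -3.69 at day 1, 0.03 at day 3 and 1.94 at day 7, with a gap 3.71 higher at day 3 than at day 1 (adjusted p 2.34e-06). Gpnmb, a glycoprotein of lipid-laden phagocytes, and Ms4a7, of macrophages, were higher at day 3 than at day 1 by 3.33 and 2.99 (adjusted p 0.0115 and 0.0204). Of 17 monocyte and macrophage genes 8 were higher than at day 1 and 3 lower than at day 7, and of 13 resting microglia genes 6 and 4. P2ry12 had -2.38, 0.03 and -0.06 at the 3 days, its gap being higher by 2.41 at day 3 than at day 1 (adjusted p 9.16e-05) and not different from day 7 by the test (adjusted p 0.91).

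Several stress and early response genes had lower gaps at day 3 than at day 1. Hspb1, a small heat shock protein, had 2.87 at day 1 and 0.67 at day 3, a gap changed by -2.2 (adjusted p 0.0192), Gadd45b, a stress-induced regulator, one changed by -1.96 (adjusted p 0.0333) and Il11, a cytokine, by -1.87 (adjusted p 0.0159). Rhoj, a small GTPase of endothelium, and Tnfrsf12a, the TWEAK receptor, differed from day 1 by -2.06 and -1.72. Cerebral day 3 replicate 2 stood above the other 3 cerebral arrays of its day, at 1.49 against -1.39 to -1.25 for Hspb1, 2.19 against -0.35 to 0.03 for Rhoj, 2.06 against -0.38 to -0.21 for Gadd45b and 1.74 against -0.21 to 0.0796 for Tnfrsf12a. Without it the differences from day 1 were -1.5 for Hspb1, -1.48 for Rhoj and -1.27 for Tnfrsf12a, which passed, and -1.37 for Gadd45b, which did not. Gadd45b also missed the threshold without spinal day 3 replicate 2 (-1.57) or 3 (-1.85). Of the 18 immediate early genes 8 were lower at day 3 than at day 1, and the list median was 1.38, 0.82 and 1.24. Of 18 myelin genes none differed from day 1, while 1 was higher and 1 lower than at day 7, and the median was -1.0, -1.2 and -1.13.

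**Figure D5:**
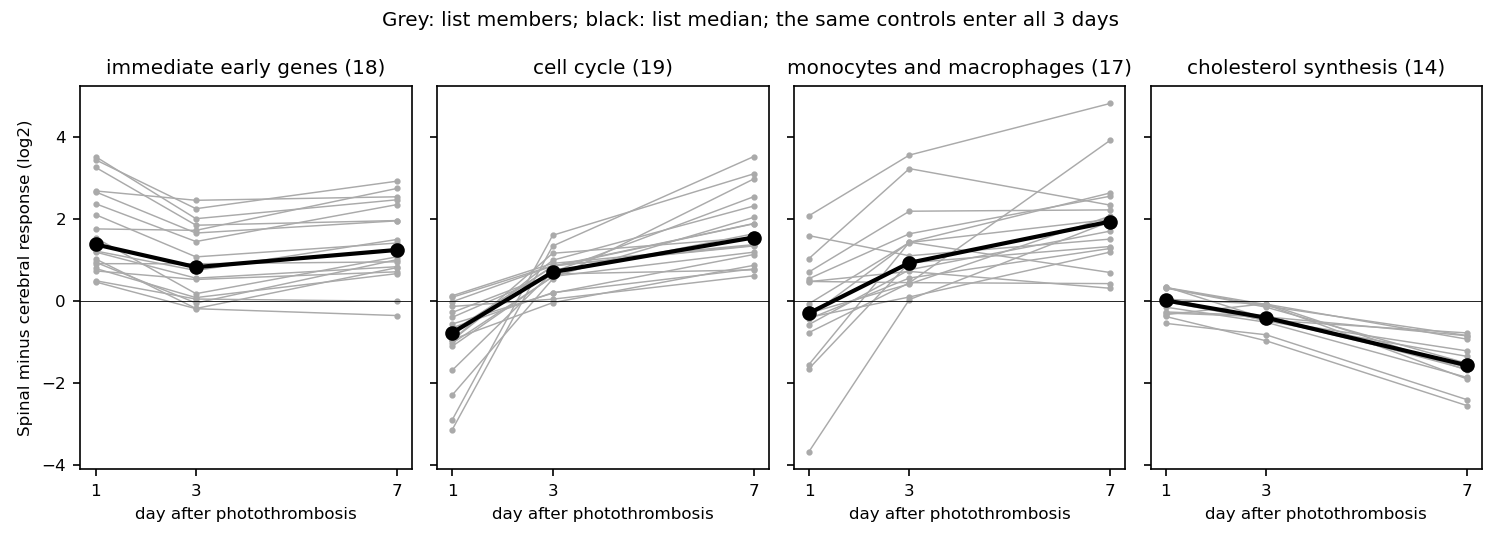
Spinal-minus-cerebral response (y axis, log2) at days 1, 3 and 7 (x axis) for the members (grey) and the median (black) of 4 lists; the same 8 control arrays enter all 3 days. The cell cycle median goes from -0.78 through 0.70 to 1.55, the monocyte and macrophage median from -0.30 through 0.93 to 1.94, and the cholesterol synthesis median from 0.01 through -0.41 to -1.57.

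Day 7 differed from day 3 in neutrophil granule, lipid and sterol genes. Ngp and Camp, granule proteins of immature neutrophils, had gaps lower by 4.18 and 3.25 at day 3 than at day 7 on the log2 scale, their differences from day 7 being -4.18 (adjusted p 1.3e-06) and -3.25 (adjusted p 5.57e-06). Cd36, a scavenger receptor for oxidised lipid, differed from day 7 by -3.48 (adjusted p 8.79e-07), Il7r, a lymphocyte cytokine receptor, by -3.0 and Mmp12, the macrophage elastase, by -3.0. Of the 14 neutrophil genes 8 were lower at day 3 than at day 7, and of 13 lipid handling genes 8. The opposite held for cholesterol synthesis, where 12 of 14 genes were higher at day 3 than at day 7. A2ml1, a protease inhibitor, Nrn1, a neurite growth factor, and Tac1, the precursor of substance P, had higher gaps at day 3 than at day 7. These gaps were higher by 2.67, 2.56 and 2.35 (adjusted p 0.00036, 8.77e-05 and 0.0156), and those of Mal2 and Frmd3 by 2.27 and 2.25.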

How the data were processed

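Per the labels, RNA of 32 samples was amplified, biotin-labelled and hybridised. The authors deposited 1 log value per probe and array, read here as log2. The labels name neither the array summarisation nor the genome build. Over the control and day 1 arrays 100% of probes had a median of 0, so these were centred together. Over the day 3 arrays alone 8.25% of probes did, so their medians do not show which arrays day 3 was centred with. Day 7 was taken as a further part. Probe brightness was not available for a filter on dim probes.

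Probes were named through Entrez identifiers and the RefSeq table (GRCm38.p6), and a gene's probes were averaged. limma 3.58.1 (R 4.3.3) was fitted to 8 group means over all 32 arrays (lmFit, eBayes, Benjamini-Hochberg over 19505 genes, threshold 0.05), with residual spread estimated on 24 degrees of freedom. The day 3 values were assumed to come from a separate centring over day 3 and control arrays together. The offset of day 3 was rebuilt by setting the median of each probe over both to 0. Of 5613 probes that could tell, 86.8% matched the controls as partner, against 69.1% for day 1 and 68.6% for day 7. The single-tissue responses rest on this assumption, while the difference of gaps does not. Single-tissue responses were tested against the half-width of the offset plus 0.0811. The scripts were tested on simulated data.

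Named are the 15 genes each way with the largest difference that passed in the full fit and without each of the 16 arrays (predicted genes passed over), the 5 each way for day 3 against days 1 and 7, and list members. The members and the 38 gene lists were chosen with earlier results of these data known. Alternatives were quantile, median and 75th percentile scaling, 16 arrays alone, array weights, robust eBayes, another rule for several probes, a filter on flat genes, each array left out, and pairs of controls left out. Figures were drawn with matplotlib.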

Additional observations from a re-analysis of the deposited data

Results flagged for a closer look

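A difference between the tissues' responses, tested gene by gene with limma, was what singled out the 796 genes with a higher and the 1012 with a lower spinal response.

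In 11 of 120 groups of 4 values of the named genes 1 array lay far from the other 3 (past the 95% critical value of Dixon's test), and in 10 of 152 groups of list scores; chance gives about 1 in 20. Cerebral day 3 replicate 2 was the distant array for Tagln (0.99), Ccn1 (1.28), Slc6a11 (0.13), Padi2 (-1.34) and Ntng1 (0.14), and for the scores of myelin (-0.80) and of the injury response of neurons (0.50). Spinal day 3 replicate 1 was distant for Egr2 (0.66), Klk6 (1.13) and the myelin score (0.0946). Cerebral day 3 replicate 1 was distant for Chil3 (0.0851) and Lcat (0.08005), and replicate 3 for the choroid plexus score (0.83). Cerebral control replicate 1 was distant for Egr2 (-0.35) and the endothelial adhesion score (-0.44), and replicate 3 for the cell cycle score (-0.0365). Spinal control replicate 3 was distant for Padi2 (2.47), and replicate 2 for the scores of pericytes and smooth muscle (0.71) and MHC class II (0.33). Spinal day 3 replicate 2 was distant for the score of matrix proteases (0.40) and replicate 4 for that of red blood cells (0.16). The values are on the deposited log scale, read here as log2.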

How the results depend on the processing

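The counts of higher and lower genes were 407 and 548 with only the 16 control and day 3 arrays, and 384 and 489 without cerebral controls 3 and 4; under the other scalings, weights, filters and controls left out they stayed within 1.5 times of 796 and 1012. Leaving out each array in turn gave 583 to 1076 higher and 782 to 1319 lower genes. For day 3 against day 1 the count of 1599 was 1059 under quantile normalisation and 2960 with array weights, and 947 to 2251 with an array left out. For day 3 against day 7 the count of 2509 was 1068 under quantile normalisation and 2099 to 3102 with an array left out. Cerebral response calls numbered 3888 with the rebuilt offset taken as exact and 1692 to 2535 with an array left out, and spinal ones 4679 to 5939. Of 3645 values of 135 genes under 27 alternatives, 3159 kept their side of the threshold, 486 lost it and 0 turned direction. Of 1026 list medians, 46 moved by more than the spread between arrays. The causes were not tested. Brightness over background was not available. No paired analysis was possible because the sample names carry no replicate numbers shared between groups.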
